A study of Mus musculus with 6 samples.

Results

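DNA replication genes were followed in mouse dermal fibroblasts with and without stabilized β-catenin. The set holds 47 genes, out of 41126 in the deposited table of all genes. It was chosen by gene name for a place in the replication machinery, with no threshold on its values, but with earlier results of these data known. The genes were divided by function into 9 groups, namely licensing, the Mcm helicase, helicase activation, polymerases and primase, clamp and clamp loader, single-strand binding, Okazaki fragment joining, nucleotide supply, and chromatin and methylation maintenance.

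A cell copies its genome once per division, in S phase. In G1 the origin recognition complex, with Cdc6 and Cdt1, loads the ring-shaped Mcm2-7 helicase onto DNA, a step called licensing. At the start of S phase, Cdc45 and the GINS complex turn that ring into an active helicase, primase and polymerases copy both strands behind it, and nucleosomes and DNA methylation are restored on the new strands. Many of these genes are transcribed under the control of E2F transcription factors, which Rb proteins hold in check, and their RNA is more abundant in dividing than in resting fibroblasts.

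RNA-seq was performed on 3 control and 3 gain of function (GOF) cultures of postnatal day 4 dermal fibroblasts from mice of mixed CD1 and C57Bl6 strain. The cultures were grown in serum, but by the study's text the virus was given in medium without serum. Control cultures carried the label AdGFP; +/+ and received an adenovirus that expresses GFP. GOF cultures carried the label AdCre; Ctnnb1 Δex3/+ and received an adenovirus that expresses Cre recombinase, which removes exon 3 of one Ctnnb1 allele and leaves a β-catenin protein that escapes degradation. The treatment label, which reads 366 to 500 MOI of the Cre virus for 6 hours, is the same for all 6 cultures. The study's text, however, gives the control cells the same transgene and the GFP virus, at 366 MOI beside 366 to 500 MOI for the Cre virus. The virus, its dose and the state of β-catenin therefore cannot be told apart in this design. By the same text RNA was isolated days after infection, so the 6 hours are not the time of harvest. The Cre virus acted on whole cultures, not on a marked cell type. By the labels, the cultures came from 4 animals. One animal supplied both control replicate 0 and GOF replicate 2, another supplied control replicate 2 and GOF replicate 0, and the last 2 cultures had an animal each.

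The libraries held 35980831 to 42834467 fragments each. All 47 genes had a successful estimate in every library and passed the filter on low counts, as did 15462 genes in all. Axin2, a direct target of β-catenin, was at 0.144, 0.136 and 0.177 FPKM (fragments scaled for transcript length and library depth) in the control libraries and at 19.2, 14.4 and 18.7 FPKM in the GOF libraries. Ctnnb1 itself had 267 ± 16.3 FPKM in control and 263 ± 28.8 FPKM in GOF libraries (SD, n = 3 each), and a whole-gene value does not report the loss of 1 exon from 1 allele. Markers of fibroblasts were abundant, with 8 genes summing to 3021 to 3848 FPKM in control and 2491 to 3016 FPKM in GOF libraries, although Dcn and Col1a2 fell and Vim rose. Col1a2 and Vim each lost the call without any 1 of 4 libraries, control replicates 1 and 2 and GOF replicate 2 among them, and with the animal as a block Pdgfra and Lum fell as well (adjusted p = 0.0024 and 0.00916). None of 8 keratinocyte markers reached 1 FPKM. Skeletal muscle markers summed to 23.3 to 27.4 FPKM in control and 138 to 172 FPKM in GOF libraries. Nearly all of that was Acta1, while Myod1, Myog and Myf5 stayed under 1 FPKM and Pax7 was at 0. The 6 markers of pericytes or smooth muscle summed to 1591 to 2215 FPKM in control and 1818 to 3411 FPKM in GOF libraries. Acta2 made up nearly all of this, at 1785 ± 337 FPKM in control and 2389 ± 840 FPKM in GOF libraries (SD, n = 3 each). The control means of Mcam, Myh11, Rgs5, Cspg4 and Notch3 were 25.9, 10.1, 2.87, 2.83 and 0.867 FPKM. The 4 markers of Schwann cells summed to 4.13 to 9.56 FPKM in control and 4.98 to 8.13 FPKM in GOF libraries. Neither list had a gene past the adjusted p. With the animal as a block, however, the smooth muscle myosin Myh11 (adjusted p = 0.00866) and the pericyte receptor Notch3 (adjusted p = 0.00524) passed as higher in GOF libraries, as both did without GOF replicate 1, and Myh11 with DESeq2. Endothelial (2.88 to 3.45 FPKM in control, 2.39 to 4.24 in GOF), macrophage (10.8 to 19.4, 8.60 to 24.9), adipocyte (7.18 to 8.95, 1.80 to 3.17) and melanocyte (5.80 to 12.4, 2.99 to 7.09) sums were low, with Fabp4, Mlana and Tek lower and Kdr and Csf1r higher in GOF libraries. Mlana and Tek did not pass without GOF replicate 0, nor Mlana without control replicate 1, and Lyz2 passed as lower with the animal as a block (adjusted p = 0.0143). Their part in the results below was not tested. In bulk RNA, fewer cells in S phase and less RNA per cell cannot be told apart.

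Some of the replication genes fell in the GOF libraries. Counts by role are given below as a description, since differences between the roles were not tested. At an adjusted p under 0.05, 13 of the 47 genes fell (27.7%, beside 10.2% of all tested genes) and none rose (beside 11.1%). With a fold change over 2 as well, 6 genes fell, which is 12.8% beside 5.64% of all tested genes, and none was called higher, beside 6.69%. These 6 were Cdc6, Uhrf1, Tk1, Prim1, Mcm10 and Mcm5, and the others that passed were Gins1, Mcm8, Pold1, Pola1, Gmnn, Mcm3 and Gins4. The median log2 fold change of the 47 genes was -0.45, with a range of -1.66 to 0.49, whereas the median of all tested genes was -0.02. The fitted change was below 0 in 41 of the 47 genes (87.2%, beside 51.5% of all tested genes).

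Of the 34 genes that did not pass, 13 had an unadjusted p under 0.05, 12 of them lower and 1, Prim2, higher. For the other 21 genes the 95% interval of the change included 0, which restates an unadjusted p of 0.05 or more. The share of all tested genes under that unadjusted p was not counted, so such counts, here and by role, are a description only. No gene rose with edgeR at the adjusted p, whereas DESeq2 passed Prim2 as higher, with 19 genes lower. Of all genes DESeq2 passed 4204, beside 3281 with edgeR. The count of genes that fell depended on single libraries. It was 5 without GOF replicate 0, 6 without control replicate 1, 8 without control replicate 2, without GOF replicate 1 or without GOF replicate 2, and 11 without control replicate 0. The count over all genes, in either direction, moved as well. It was 3281 with all libraries, and 1732, 1795, 2067, 2403, 2957 and 3726 in the same order of libraries left out. Cdc6, Mcm10, Pola1, Tk1 and Uhrf1 passed whichever library was left out. Prim1 did not pass without GOF replicate 0, Mcm3 did not without control replicate 1, GOF replicate 0 or GOF replicate 2, and Mcm5 did not without control replicate 1 or any 1 of the GOF libraries. Gmnn was lost without control replicate 1 or 2 or GOF replicate 0 or 2, and Pold1 without control replicate 1 or 2 or GOF replicate 0 or 1. Gins1, Gins4 and Mcm8 were lost whichever library was left out. With the animal as a random effect (limma voom), 24 genes fell, while 5126 of all genes passed. With the animal as a block 18 fell, while 3303 of all genes passed. The block estimates the change from the 2 animals with both cultures alone, and control replicate 0 is among those cultures.

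**Figure D1:**
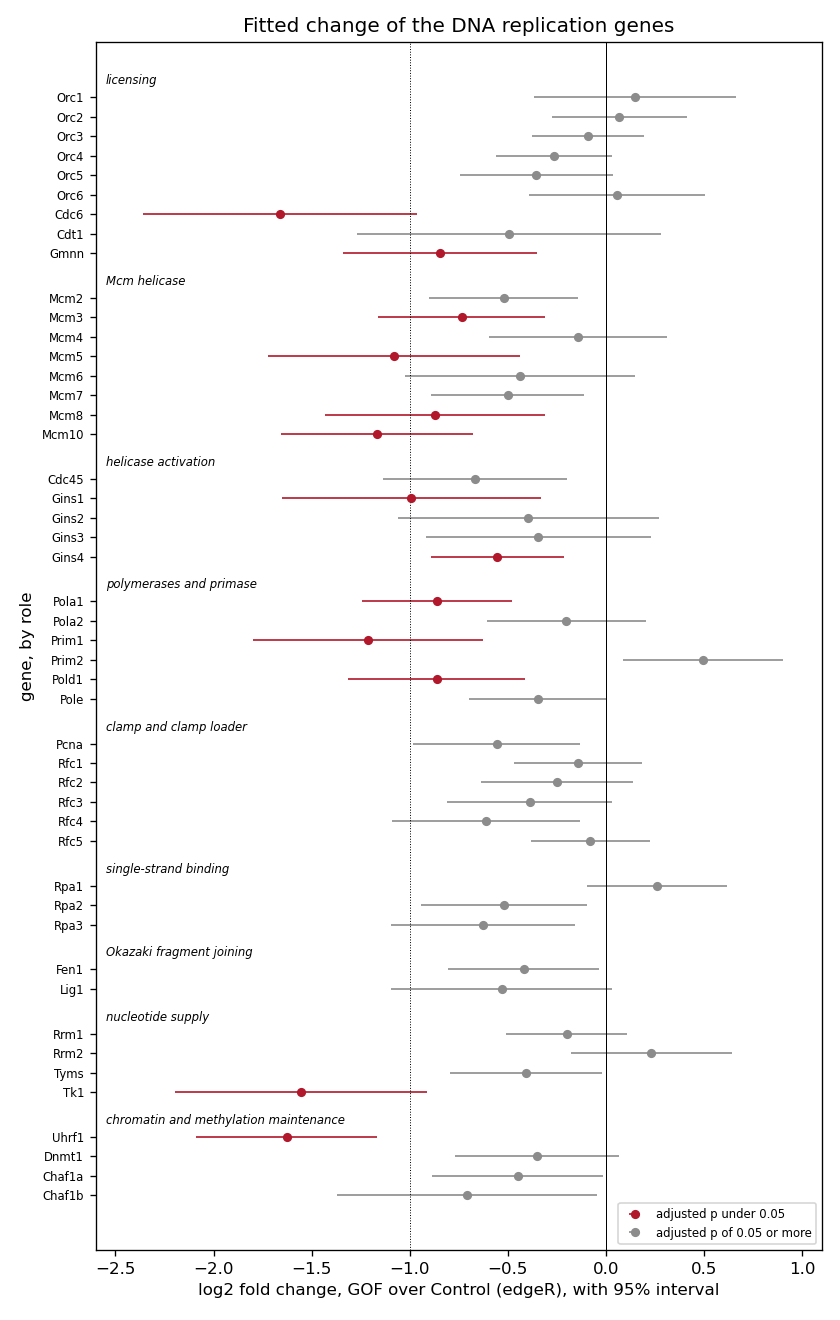
Each point is the fitted log2 fold change (GOF over Control) of 1 of the 47 genes, with its 95% interval, grouped by role. Red marks the 13 genes with an adjusted p under 0.05, all to the left of 0, and the dotted line marks a halving; Cdc6, Uhrf1 and Tk1 lie farthest left, the Orc genes lie near 0, and Prim2 is the one gene whose interval lies wholly above 0.

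The 6 genes past both thresholds lie on different chromosomes in the GRCm38 assembly, apart from a pair on chromosome 11. They are Cdc6 (ENSMUSG00000017499.10) on chromosome 11 from 98907801 to 98923940, Tk1 (ENSMUSG00000025574.8) on chromosome 11 from 117815526 to 117826092, Uhrf1 (ENSMUSG00000001228.9) on chromosome 17 from 56303321 to 56323486, Prim1 (ENSMUSG00000025395.9) on chromosome 10 from 128015168 to 128030037, Mcm10 (ENSMUSG00000026669.9) on chromosome 2 from 4989714 to 5012791 and Mcm5 (ENSMUSG00000005410.5) on chromosome 8 from 75109569 to 75128439.

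Promoters of these genes are known for E2F sites, so the sequence next to the start of each gene was searched. RefSeq windows of 250 bases before to 50 bases after the start were found for 39 of the 47 genes. The E2F consensus was searched on both strands as the 4 words of 8 letters TTTCCCGC, TTTGGCGC, TTTCGCGC and TTTGCCGC, and words that overlap each other were each marked. At least 1 word lay in the windows of 16 of the 39 genes (41%), beside 2.6% of all 27025 genes with a window. The CCAAT box was found in 26 of the 39 (66.7%), beside 41.1% of all genes. Among genes with a window, an E2F word was found in 7 of the 10 that fell and in 9 of the 29 that did not pass, a difference that was not tested. Orc1 and Orc3, which did not pass, hold 1 word each. A match of letters is a description and does not show that a factor binds there.

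The stretches below were picked after their values were seen, to show words in genes that fell and in one that did not pass, and a gene that fell without any. Each covers the 200 bases before the start, 5′ to 3′ on the strand of the gene in GRCm38.p6, with the E2F words in capitals, and none overlaps an exon of the GENCODE annotation. Uhrf1, Mcm5 and Pola1 fell and hold 1, 2 and 1 words here. Mcm6 did not pass and holds 3, the most of the 5, while Mcm10 fell past both thresholds and holds none. The words of Mcm5 overlap, as do the pair farther from the start in Mcm6. The stretches lie at chr17:56304113-56304312 (plus strand) for Uhrf1, chr8:75109309-75109508 (plus strand) for Mcm5, chrX:93632156-93632355 (minus strand) for Pola1, chr1:128359706-128359905 (minus strand) for Mcm6 and chr2:5012792-5012991 (minus strand) for Mcm10. Uhrf1 has 2 windows, and the stretch shown lies inside the annotated gene, between its exons, while the 4 others lie outside their own gene.
Uhrf1: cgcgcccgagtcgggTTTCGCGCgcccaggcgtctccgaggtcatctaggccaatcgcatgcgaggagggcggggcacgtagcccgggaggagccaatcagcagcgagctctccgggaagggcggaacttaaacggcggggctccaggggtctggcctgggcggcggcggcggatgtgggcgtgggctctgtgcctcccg
Mcm5: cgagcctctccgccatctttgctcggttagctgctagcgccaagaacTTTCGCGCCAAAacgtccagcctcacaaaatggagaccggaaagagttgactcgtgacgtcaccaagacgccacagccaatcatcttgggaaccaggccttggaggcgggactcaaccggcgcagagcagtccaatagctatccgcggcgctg
Pola1: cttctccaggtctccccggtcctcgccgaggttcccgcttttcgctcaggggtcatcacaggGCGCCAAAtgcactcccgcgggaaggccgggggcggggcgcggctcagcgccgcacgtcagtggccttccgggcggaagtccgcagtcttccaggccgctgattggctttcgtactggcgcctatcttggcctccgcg
Mcm6: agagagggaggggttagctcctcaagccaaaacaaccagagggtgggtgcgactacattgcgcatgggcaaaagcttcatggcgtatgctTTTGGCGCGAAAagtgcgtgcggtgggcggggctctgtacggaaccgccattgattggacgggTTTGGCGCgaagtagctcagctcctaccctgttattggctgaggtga
Mcm10: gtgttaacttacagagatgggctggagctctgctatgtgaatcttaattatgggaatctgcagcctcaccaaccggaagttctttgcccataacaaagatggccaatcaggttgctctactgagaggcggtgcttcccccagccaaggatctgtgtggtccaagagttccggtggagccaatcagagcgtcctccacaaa

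In the following, 3 values of one group are always in the order of replicates 0, 1 and 2, levels are in FPKM, and changes are log2 fold changes of GOF over control fitted by edgeR. The levels of the 47 genes in each library, relative to the control mean, are plotted by role.

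**Figure D2:**
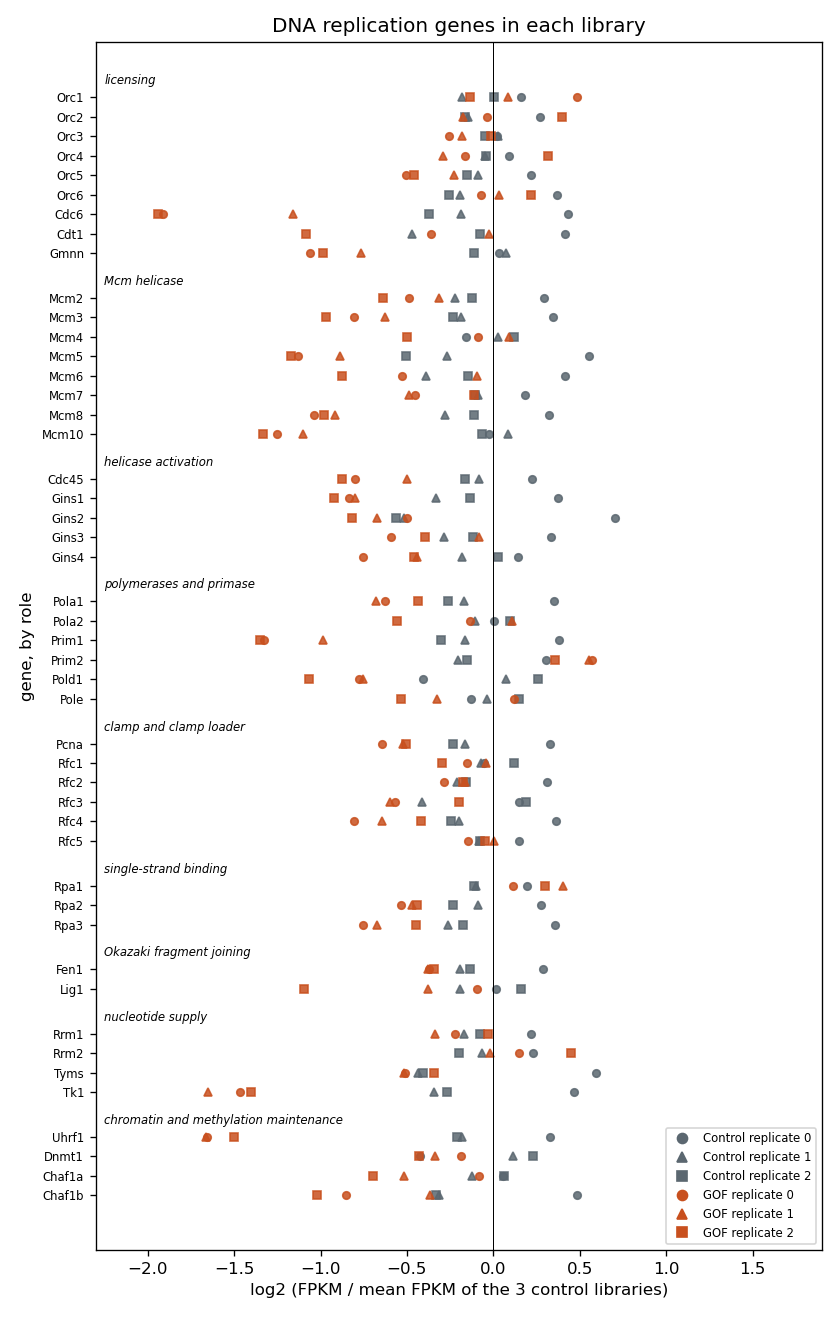
Each row is 1 of the 47 genes, grouped by role, and each symbol 1 library; the x axis is the log2 ratio of its FPKM to the mean FPKM of the 3 control libraries. All 3 GOF libraries lie below all 3 control libraries for 23 genes, among them Cdc6, Tk1 and Uhrf1, and control replicate 0 (grey circles) is the highest control library for 35 genes.

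Of the 9 licensing genes, Cdc6 and Gmnn fell and none of the 7 others passed, none of these having an unadjusted p under 0.05. Cdc6, the ATPase that joins the origin complex to load the helicase, was at 2.25, 1.46 and 1.28 FPKM in the control libraries and 0.442, 0.746 and 0.434 FPKM in the GOF libraries. Every GOF library was below every control library, and its mean fell from 1.67 ± 0.514 to 0.541 ± 0.178 FPKM (mean ± SD, n = 3 each), and the fitted change was -1.66 (SE 0.30, adjusted p = 0.00824). Gmnn, which encodes geminin, the inhibitor that binds Cdt1 and blocks a second round of loading, was at 4.58, 4.71 and 4.14 FPKM in the control libraries and 2.14, 2.63 and 2.26 FPKM in the GOF libraries. The groups did not overlap and Gmnn changed by -0.85 (SE 0.21, adjusted p = 0.0278). Cdt1, the loading factor that geminin inhibits, was at 1.36, 0.737 and 0.968 FPKM in the control libraries and 0.798, 1.01 and 0.482 FPKM in the GOF libraries. Its groups overlapped, with GOF replicate 1 above the lower pair of controls, and the change of -0.50 (95% interval -1.27 to 0.28, adjusted p = 0.331) leaves a large fall as well as a small rise within its interval.

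The 6 genes of the origin recognition complex, which marks the sites where replication can begin, had a median change of -0.02, and none passed the adjusted p with edgeR or with DESeq2, or had an unadjusted p under 0.05. Orc1, whose product comes and goes with the cell cycle, was at 1.52, 1.2 and 1.36 FPKM in the control libraries and 1.9, 1.44 and 1.24 FPKM in the GOF libraries. Orc2, a core subunit, was at 12.8, 9.6 and 9.45 FPKM in the control libraries and 10.4, 9.37 and 14 FPKM in the GOF libraries. For both genes the highest library of all was a GOF library, and the groups overlapped. Orc6 had the largest adjusted p of the licensing genes and was at 17.8, 12.1 and 11.6 FPKM in the control libraries and 13.2, 14.2 and 16.1 FPKM in the GOF libraries. The changes of Orc1 and Orc2 were 0.15 (95% interval -0.37 to 0.66, adjusted p = 0.677) and 0.07 (95% interval -0.28 to 0.41, adjusted p = 0.787), and that of Orc6 0.06 (95% interval -0.39 to 0.51, adjusted p = 0.864). Within these intervals, a halving of any of the 3 is not included. Orc3 and Orc4 had changes of -0.09 and -0.27. On FPKM, Orc4 differed by -0.02, a unit that also depends on the transcripts to which the fragments were assigned. Orc5 was the one Orc gene whose groups did not overlap, at -0.35 (95% interval -0.75 to 0.04, adjusted p = 0.181).

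The Mcm helicase genes were all fitted below 0, with a median of -0.63, and 4 of 8 fell. Mcm2 to Mcm7 encode the 6 subunits of the ring that unwinds the parental strands. Among them Mcm3 and Mcm5 fell, and the other 4 did not pass. Mcm5 was at 9.07, 5.13 and 4.36 FPKM in the control libraries and 2.82, 3.34 and 2.75 FPKM in the GOF libraries. The 3 GOF libraries lay close together below all controls, while control replicate 0 stood well above the other 2 controls. The change was -1.08 (SE 0.28, adjusted p = 0.0297). With limma on log2 FPKM, with 1 or 0.1 added, Mcm5 did not pass (adjusted p = 0.0576 and 0.0535). Mcm3 was at 12.7, 8.82 and 8.55 FPKM in the control libraries and 5.75, 6.49 and 5.14 FPKM in the GOF libraries, again with no overlap and control replicate 0 highest, a change of -0.74 (SE 0.18, adjusted p = 0.0274).

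Mcm2 was at 12.3, 8.65 and 9.26 FPKM in the control libraries and 7.18, 8.09 and 6.48 FPKM in the GOF libraries, and Mcm7 at 19.3, 16 and 15.8 FPKM in the control libraries and 12.4, 12.2 and 15.8 FPKM in the GOF libraries. Neither gene had overlapping groups, although GOF replicate 2 came within a small margin of the lowest control for Mcm7. Their changes were -0.52 (95% interval -0.90 to -0.14, adjusted p = 0.0588) and -0.50 (95% interval -0.89 to -0.11, adjusted p = 0.0732), and Mcm2 passed with the animal as a block (adjusted p = 0.0494). Mcm6 was at 20.3, 11.6 and 13.8 FPKM in the control libraries and 10.6, 14.3 and 8.29 FPKM in the GOF libraries, with GOF replicate 1 above a pair of the controls. It had a fitted change of -0.44 (95% interval -1.02 to 0.15, adjusted p = 0.26) and passed with the animal as a block (adjusted p = 0.0315). Mcm4 was at 7.0, 7.94 and 8.48 FPKM in the control libraries and 7.34, 8.32 and 5.51 FPKM in the GOF libraries. Here control replicate 0 was the lowest control and the groups overlapped, and Mcm4 had the largest adjusted p of the Mcm genes, at -0.14 (95% interval -0.60 to 0.31, adjusted p = 0.645). On this scale the control means of Mcm2 to Mcm7 ran from 6.19 FPKM for Mcm5 to 17.0 FPKM for Mcm7, and the GOF means from 2.97 FPKM for Mcm5 to 13.5 FPKM for Mcm7.

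Mcm8 and Mcm10 are no part of the ring. Mcm10 helps to start the loaded helicase and had the smallest adjusted p of the group. It was at 1.3, 1.4 and 1.26 FPKM in the control libraries and 0.555, 0.614 and 0.524 FPKM in the GOF libraries, and the spread within either group was small beside the gap between them, with a change of -1.17 (SE 0.21, adjusted p = 0.00819). Mcm8, which acts with Mcm9 in homologous recombination, was at 1.78, 1.17 and 1.32 FPKM in the control libraries and 0.694, 0.755 and 0.721 FPKM in the GOF libraries, without overlap and with a change of -0.87 (SE 0.24, adjusted p = 0.0396).

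**Figure D3:**
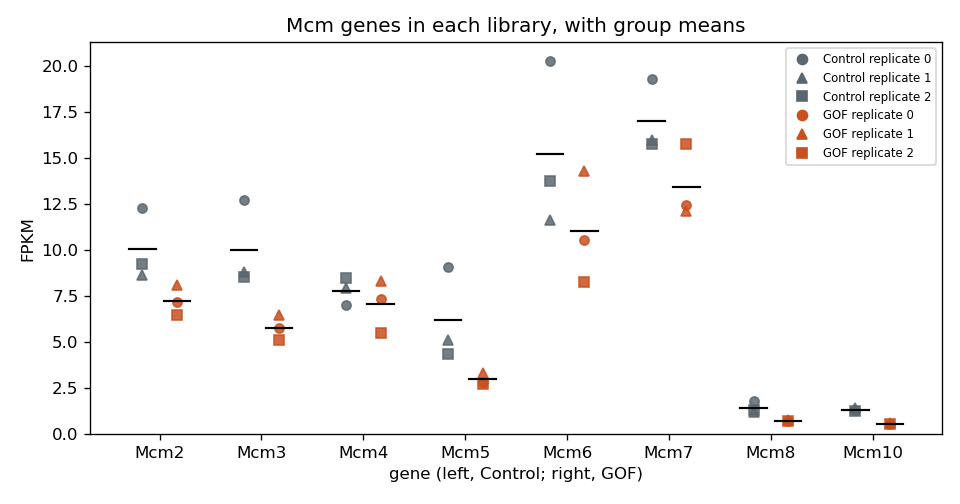
FPKM of the 8 Mcm genes in each of the 3 control (grey) and 3 GOF (orange) libraries, with bars at the group means on an axis that starts at 0. Mcm4 and Mcm6 overlap between groups, the others do not, and control replicate 0 is highest for Mcm2, Mcm3, Mcm5, Mcm6, Mcm7 and Mcm8 but lowest among the controls for Mcm4.

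The helicase activation genes were likewise all fitted below 0 (median -0.55), and 2 of 5 fell, none by more than a halving. Cdc45 and the 4 GINS subunits bind the Mcm2-7 ring and complete the active helicase. Gins4 was at 26.2, 21 and 24.2 FPKM in the control libraries and 14.1, 17.5 and 17.3 FPKM in the GOF libraries, with no overlap between groups, and changed by -0.55 (SE 0.15, adjusted p = 0.0333). Gins1 fell from 2.05 ± 0.534 to 1.13 ± 0.0494 FPKM (mean ± SD, n = 3 each), with a change of -0.99 (SE 0.28, adjusted p = 0.0436). Gins2 was at 12.3, 5.28 and 5.11 FPKM in the control libraries and 5.36, 4.74 and 4.29 FPKM in the GOF libraries. Control replicate 0 was far above every other library, and the remaining 5 libraries overlapped. The change of Gins2 was -0.40 (95% interval -1.06 to 0.27, adjusted p = 0.367), and 0.01 without control replicate 0. Cdc45 missed the threshold at -0.67 (95% interval -1.14 to -0.20, adjusted p = 0.0531), with groups that did not overlap, and passed with the animal as a block (adjusted p = 0.0458). Gins3 had a fitted change of -0.34, with overlapping groups.

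Of the 6 polymerase and primase genes, 3 fell and none rose by edgeR, with a median of -0.61. Pola1, the catalytic subunit of DNA polymerase α, which starts every new strand, was at 6.06, 4.23 and 3.96 FPKM in the control libraries and 3.07, 2.97 and 3.51 FPKM in the GOF libraries. The groups did not overlap and the change was -0.86 (SE 0.16, adjusted p = 0.00991). On FPKM the difference of Pola1 was smaller, -0.58, and with limma on log2 FPKM it did not pass. Pola2, the accessory subunit of the same polymerase, was at 4.73, 4.38 and 5.04 FPKM in the control libraries and 4.29, 5.08 and 3.21 FPKM in the GOF libraries. Its groups overlapped, with GOF replicate 1 the highest library, and the change was -0.20 (95% interval -0.61 to 0.20, adjusted p = 0.45).

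Primase makes the RNA primers that polymerase α extends. Prim1, its catalytic subunit, was at 6.16, 4.23 and 3.84 FPKM in the control libraries and 1.89, 2.4 and 1.86 FPKM in the GOF libraries. No GOF library reached the lowest control, and the change was -1.21 (SE 0.25, adjusted p = 0.0139). Prim2, the regulatory subunit, was at 11.4, 8.03 and 8.3 FPKM in the control libraries and 13.7, 13.6 and 11.8 FPKM in the GOF libraries. All 3 GOF libraries were above all 3 control libraries, which held for no other member of the set, and the change was 0.49 (95% interval 0.09 to 0.90, adjusted p = 0.0863). Without control replicate 0, its change was 0.67 and passed (adjusted p = 0.0180), and with DESeq2 it passed as well (adjusted p = 0.0482).

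Pold1 and Pole encode the catalytic subunits of the polymerases that copy mainly the lagging and the leading strand. Pold1 was at 2.94, 4.09 and 4.66 FPKM in the control libraries and 2.27, 2.31 and 1.86 FPKM in the GOF libraries, with every GOF library below every control library and control replicate 0 the lowest control. It changed by -0.86 (SE 0.19, adjusted p = 0.0185), and with the animal as a block it did not pass (adjusted p = 0.0585). Pole was at 1.66, 1.77 and 2.01 FPKM in the control libraries and 1.97, 1.44 and 1.25 FPKM in the GOF libraries, with GOF replicate 0 next to the highest control, a change of -0.35 (adjusted p = 0.143).

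Genes of the sliding clamp and its loader did not pass, although all 6 were fitted below 0 (median -0.32). With edgeR none of 6 passed, 2 had an unadjusted p under 0.05, and DESeq2 passed the same genes, Pcna and Rfc4. Pcna, the ring that holds polymerases on DNA, was at 53.1, 37.7 and 36 FPKM in the control libraries and 27, 29.4 and 29.8 FPKM in the GOF libraries. The GOF libraries were all below the controls and closely spaced, while control replicate 0 was far above the others. Its change was -0.56 (95% interval -0.98 to -0.13, adjusted p = 0.0689), and it passed with the animal as a block (adjusted p = 0.0379). Rfc1 to Rfc5 form the complex that opens the ring. Rfc4 was at 8.06, 5.46 and 5.3 FPKM in the control libraries and 3.58, 4.02 and 4.69 FPKM in the GOF libraries, without overlap, and had a fitted change of -0.61 (95% interval -1.09 to -0.13, adjusted p = 0.0738). Rfc1, the large subunit, was at 11.1, 11 and 12.5 FPKM in the control libraries and 10.4, 11.2 and 9.41 FPKM in the GOF libraries, and Rfc5 at 20.3, 17.2 and 17.4 FPKM in the control libraries and 16.5, 18.3 and 17.7 FPKM in the GOF libraries. Both had overlapping groups, with changes of -0.14 (95% interval -0.47 to 0.18, adjusted p = 0.507) and -0.08 (95% interval -0.38 to 0.22, adjusted p = 0.703). Rfc2 and Rfc3 had fitted changes of -0.25 and -0.39, and neither passed.

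The 3 subunits of replication protein A, which coats single-stranded DNA at the fork, had fitted changes of both signs. None passed with edgeR, 2 had an unadjusted p under 0.05 and DESeq2 passed Rpa3. Rpa3, the smallest subunit, was at 36.7, 23.9 and 25.4 FPKM in the control libraries and 17, 18 and 21 FPKM in the GOF libraries. There was no overlap, and its change of -0.63 (95% interval -1.09 to -0.16, adjusted p = 0.0638) passed with the animal as a block (adjusted p = 0.0331). Rpa1, the largest subunit, was at 42.8, 34.9 and 34.6 FPKM in the control libraries and 40.5, 49.4 and 46 FPKM in the GOF libraries. GOF replicates 1 and 2 were above every control and GOF replicate 0 was not, and the change was 0.26 (95% interval -0.10 to 0.62, adjusted p = 0.275). Rpa2 had a fitted change of -0.52 (95% interval -0.94 to -0.10, adjusted p = 0.0815), without overlap.

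Okazaki fragments, the short pieces of the lagging strand, are trimmed by the flap nuclease Fen1 and sealed by the ligase Lig1. Neither gene passed, with edgeR or DESeq2, and 1 had an unadjusted p under 0.05. Fen1 was at 10.7, 7.71 and 8.03 FPKM in the control libraries and 6.82, 6.78 and 6.97 FPKM in the GOF libraries, a narrow GOF range below all controls, and had a fitted change of -0.42 (95% interval -0.80 to -0.03, adjusted p = 0.116). Lig1 was at 2.56, 2.22 and 2.84 FPKM in the control libraries and 2.38, 1.95 and 1.19 FPKM in the GOF libraries, with GOF replicate 2 far below the rest and GOF replicate 0 within the control range. It had a fitted change of -0.53 (95% interval -1.09 to 0.03, adjusted p = 0.164).

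Of the 4 nucleotide supply genes 1 fell, and the fitted changes ran from -1.55 for Tk1 to 0.23 for Rrm2. Tk1, the thymidine kinase of the salvage pathway, was at 17.8, 10.1 and 10.7 FPKM in the control libraries and 4.66, 4.1 and 4.87 FPKM in the GOF libraries. All GOF libraries were far below the lowest control and close to each other, and the change was -1.55 (SE 0.28, adjusted p = 0.00784). Rrm1 and Rrm2, the large and small subunits of ribonucleotide reductase, make deoxyribonucleotides. Rrm1 was at 35.6, 27.2 and 29 FPKM in the control libraries and 26.2, 24.2 and 30.0 FPKM in the GOF libraries. Rrm2 was at 15, 12.2 and 11.1 FPKM in the control libraries and 14.1, 12.6 and 17.4 FPKM in the GOF libraries, with GOF replicate 2 the highest library of all. Neither gene had separate groups, and the changes were -0.20 (95% interval -0.51 to 0.11, adjusted p = 0.323) and 0.23 (95% interval -0.18 to 0.64, adjusted p = 0.396). Tyms, which makes thymidylate anew, had 15.6 ± 6.84 FPKM in control and 11.4 ± 0.775 FPKM in GOF libraries (SD, n = 3 each), and its control mean rested on control replicate 0, at 23.5 FPKM beside 11.5 and 11.7 FPKM in the other controls. Its change was -0.41 (95% interval -0.80 to -0.02, adjusted p = 0.124).

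Among genes that restore chromatin on new DNA, Uhrf1 fell and the other 3 did not pass. Uhrf1 recognises DNA that is methylated on the old strand alone and brings in Dnmt1, the enzyme that methylates the new one. Uhrf1 had the smallest adjusted p of all 47 genes and was at 6.6, 4.64 and 4.54 FPKM in the control libraries and 1.67, 1.66 and 1.86 FPKM in the GOF libraries. The groups were far apart, and the change was -1.63 (SE 0.20, adjusted p = 0.0018). Dnmt1 was at 6.24, 9.04 and 9.82 FPKM in the control libraries and 7.35, 6.62 and 6.21 FPKM in the GOF libraries. Control replicate 0 lay among the GOF libraries and the other controls lay above them, and the change was -0.35 (95% interval -0.77 to 0.07, adjusted p = 0.212). Without control replicate 0 it was -0.53 and passed (adjusted p = 0.0173). Chaf1a and Chaf1b are subunits of the assembly factor that places histones behind the fork. They had fitted changes of -0.45 (95% interval -0.89 to -0.01, adjusted p = 0.132) and -0.71 (95% interval -1.37 to -0.05, adjusted p = 0.12), the second with no overlap between groups and past the threshold with the animal as a block (adjusted p = 0.0374).

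Ratios of paired genes within each library were compared, since a change that all replication genes share cancels in them. There were 6 pairs, each tested on the log2 ratio of FPKM with an exact two-sided permutation test, which with 3 against 3 libraries cannot give a p below 0.1. No ratio could pass at that size. The ratio of Rrm2 to Rrm1 was 0.42, 0.449 and 0.382 in the control libraries and 0.539, 0.519 and 0.58 in the GOF libraries. Every GOF value was above every control value, a difference of 0.39 on the log2 scale (exact permutation p = 0.10, adjusted over the 6 ratios 0.30). The ratio of Pole to Pold1 was 0.564, 0.432 and 0.43 in the control libraries and 0.867, 0.625 and 0.672 in the GOF libraries. It did not overlap either, with a log2 difference of 0.60 (exact permutation p = 0.10, adjusted 0.30). The other 4 ratios overlapped between groups. Rfc1 to Rfc4 differed by 0.44 and Cdt1 to Gmnn by 0.49 (exact permutation p = 0.30 each, adjusted 0.45). Single libraries moved both, Rfc1 to Rfc4 to 0.21 without control replicate 0, and Cdt1 to Gmnn to 0.24 without control replicate 1 and to 0.77 without GOF replicate 2. Over the 2 animals with both cultures, Cdt1 to Gmnn differed by 0.094. Orc1 to Orc2 differed by 0.08 (exact permutation p = 0.90) and Mcm8 to Mcm5 by 0.03 (exact permutation p = 1.0). For Orc1 to Orc2, GOF replicate 2 was the lowest of the 6 libraries and GOF replicate 0 the highest.

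**Figure D4:**
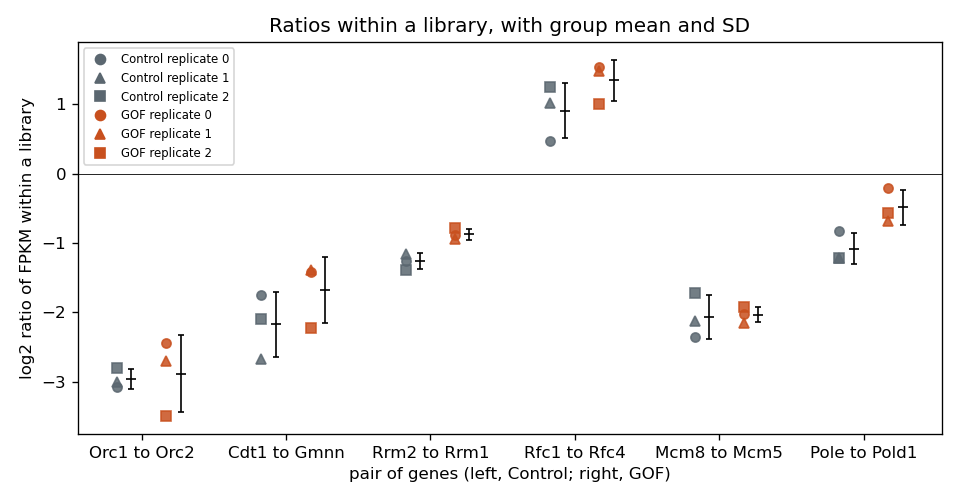
The y axis is the log2 ratio of the FPKM of 2 genes within a library, for 6 pairs, with symbols for the 3 control (grey) and 3 GOF (orange) libraries and bars for group mean and SD. The groups are apart for Rrm2 to Rrm1 and for Pole to Pold1 and overlap for the other 4 pairs.

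Levels were also compared between libraries and within animals. All 3 GOF libraries were below all 3 control libraries for 23 of the 47 genes (48.9%, beside 19.2% of all tested genes) and above them for Prim2 (beside 20.3% of all tested genes that were higher in this way). The 47 genes summed to 641, 489 and 501 FPKM in the control libraries and to 425, 448 and 472 FPKM in the GOF libraries. Control replicate 0 stood apart, with the highest FPKM of the 3 controls in 35 of the 47 genes, and with a median of 0.29 above the control mean in log2 counts scaled for depth, while the other controls had -0.12 and -0.15 and the GOF libraries -0.54, -0.39 and -0.53. Without it, the median log2 fold change of the set was -0.34 and 11 genes fell. In the 2 animals cultured under both conditions, GOF was below control in both for 40 of the 47 genes in counts scaled for depth (85.1%, beside 38.2% of all tested genes). The exceptions were Orc1, Orc2, Orc6, Gins2, Prim2, Rpa1 and Rrm2. In FPKM, Orc4 was an exception too, at 51.9 FPKM in control replicate 0 and 60.7 FPKM in GOF replicate 2 of the same animal, which leaves 39 genes (83%, beside 35.9%). Since control replicate 0 is the control culture of that animal, neither count is separate from that library.

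Other genes of replication and division were read from lists. Of 41 further replication genes, 8 fell (19.5%, beside 10.2% of all tested genes) and none rose (edgeR, none at an unadjusted p under 0.05, none by DESeq2), with a median of -0.40, beside -0.45 for the set described here. Clspn, which links the fork to the checkpoint kinase, changed by -1.28 (SE 0.19, adjusted p = 0.00388). Dscc1, part of an alternative clamp loader, changed by -1.82 (SE 0.33, adjusted p = 0.00883), and Timeless, which protects the fork, by -1.21 (SE 0.24, adjusted p = 0.012). Clspn and Dscc1 passed whichever library was left out. With the low-count filter replaced by an FPKM of at least 1 in 3 libraries, however, 6 fell, and Dscc1 and Recql4 were not among them. The count became 2 without GOF replicate 0, where Timeless, Cdc7, Recql4, Dtl, Atad5 and Dut did not pass, 3 without control replicate 1, 4 without GOF replicate 2, 6 without control replicate 0 or control replicate 2, and 7 without GOF replicate 1. With the animal as a block 7 passed. Timeless (adjusted p = 0.0511), Recql4 (0.082) and Atad5 (0.0511) did not, and Pole2 (0.0352) and Pold3 (0.0198) did.

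Of 20 mitosis genes, 16 fell past a fold change of 2 (80%, beside 5.64% of all tested genes). At the adjusted p alone 18 fell (90%, beside 10.2%), and the median was -1.44. With 1 library left out, 14 to 18 fell. Aurka and Tpx2 did not pass. Plk1, a kinase of mitotic entry, changed by -1.44 (SE 0.18, adjusted p = 0.00176), Cenpe, a kinetochore motor, by -1.13 (SE 0.14, adjusted p = 0.0018), and Mki67, a marker of dividing cells, by -1.65 (SE 0.12, adjusted p = 0.000298). The difference between the mitosis and the replication genes was not tested.

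Of 18 E2F, Rb and S-phase cyclin genes, 1 fell (5.56%, beside 10.2% of all tested genes) and 2 rose (11.1%, as among all tested genes), and the median was 0.02. Neither share is above that of all tested genes. The counts moved between fits. With 1 library left out, 0 to 3 fell. With DESeq2, 3 fell and 2 rose, while 4204 of all genes passed. With the animal as a random effect (limma voom), 4 fell and 3 rose, while 5126 of all genes passed. Ccna2, the cyclin of S phase and G2, was at 23, 14.2 and 13.3 FPKM in the control libraries and 7.25, 8.28 and 8.92 FPKM in the GOF libraries, with no overlap and a change of -1.04 (SE 0.23, adjusted p = 0.0186), which did not pass without GOF replicate 0 or without GOF replicate 1. E2f6, a member of the family that represses transcription without binding Rb, was at 18.8, 15.5 and 18 FPKM in the control libraries and 36.2, 33.6 and 33.4 FPKM in the GOF libraries. Every GOF library was well above every control library, and the change was 0.96 (SE 0.12, adjusted p = 0.00178). Rb1, which encodes the retinoblastoma protein that restrains E2F activators, held 1254, 1507 and 1496 fragments in the control libraries and 2804, 2567 and 3136 in the GOF libraries, a change of 0.95 (SE 0.11, adjusted p = 0.00152). In FPKM, however, Rb1 was at 11.6, 14 and 12.4 FPKM in the control libraries and 14.5, 12.9 and 19.7 FPKM in the GOF libraries. These values overlapped, and with limma on log2 FPKM Rb1 did not pass, so the size of its rise depended on the unit. E2f1, the best known activator of replication genes, had a fitted change of 0.05 (95% interval -0.22 to 0.32, adjusted p = 0.801).

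**Figure D5:**
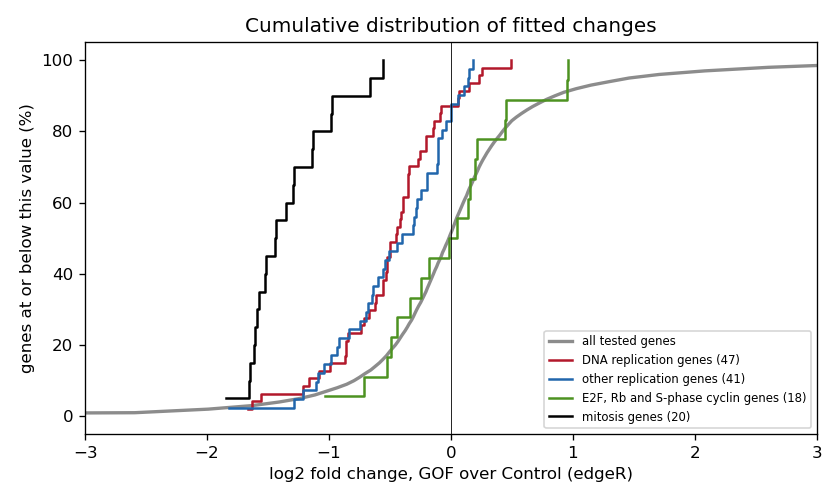
Cumulative share of genes (y axis, %) at or below each fitted log2 fold change of GOF over Control (x axis), for all 15462 tested genes, the 47 DNA replication genes, 41 other replication genes, 18 E2F, Rb and S-phase cyclin genes and 20 mitosis genes. Medians are -0.45 for the DNA replication genes, -1.44 for the mitosis genes and 0.02 for the E2F, Rb and cyclin genes, beside -0.02 for all tested genes.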

How the data were processed

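Per the file headers and the labels, the authors aligned to mm10 with TopHat and quantified with Cuffdiff, whose versions are not given in the sources used here. The deposited estimated counts are Cuffdiff's fragments per gene and library, without any scaling. The deposited FPKM values were made by the authors' Cuffdiff run, which scaled the fragments by transcript length and between libraries. A further 2 kinds of per-library columns and a table of lncRNAs were not used, nor were the authors' own fold changes and p-values. The libraries were stranded, but whether counting used the strand is not given in the sources used here, so reads of overlapping antisense genes may be mixed. Genes with a failed estimate (32 of 41126) were left out.

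Estimated counts, 4.95% of them not whole, were rounded and fitted in R 4.3.3 with edgeR 4.0.16 (TMM, filterByExpr, quasi-likelihood test, Benjamini-Hochberg adjustment over all 15462 tested genes). A gene passed at an adjusted p under 0.05 and was called with a fold change over 2 as well; "fell" and "rose" in the text mean passed. Ratios were tested with SciPy 1.17.1 by exact permutation. Alternatives used DESeq2 1.42.0 and limma 3.58.1. On simulated counts with 200 genes changed by 2 on the log2 scale, edgeR passed 200 of them and 7 unchanged genes of 15283 tested. The simulated libraries were independent, without animal pairs, and had the same dispersion for all genes. The simulation checks the code and gives no power or error rate for the smaller changes described here. A gene symbol was found for 97.9% of the genes. Gene positions are from GENCODE M21 on GRCm38, and promoter windows from RefSeq on GRCm38.p6.

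Deviations from the group means correlated at 0.41 and 0.46 within the 2 pairs of cultures from one animal. Between samples with one replicate number they correlated at -0.41, 0.05 and -0.44. Deviations sum to 0 within a group, so the negative values are not separate from the positive ones. By the labels, the animal pairs samples and the number does not. The animal block leaves 1 residual degree of freedom, and its change rests on those 2 pairs, control replicate 0 among them. No samples of a group agreed within sampling noise. With 3 libraries a group, p-values measure the spread between these cultures.

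The members and all gene lists were chosen with earlier results of these data known. Values per library are given for the member with the smallest and the largest adjusted p of each role, for Mcm2 to Mcm7, Pcna and the genes of the 6 ratios. From each other list the 3 genes with the smallest adjusted p, and any called against the list median, are named. Prim1, Gins1, Tyms, E2f1, genes with a call that differs between fits and the printed promoters were picked after their values were seen.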

Additional observations from a re-analysis of the deposited data

How the results depend on the processing

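Each result was recomputed under 16 alternatives. Cdc6, Mcm10, Tk1 and Uhrf1 passed in all 17 fits, 27 of the 47 genes passed in at least 1, and 20 in none. Over the 47 genes and the alternatives, 655 values kept direction and side of the threshold, 47 lost the threshold, 41 gained it and 8 changed sign. The median log2 fold change of the set stayed below 0 throughout, between -0.57 and -0.34, and no gene was called higher.

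The 13 genes that fell were 20 with library totals and 5 to 11 with 1 library left out. With DESeq2, 1 gene rose, and with 1 library left out 0 to 1. With limma on log2(FPKM + 1), 2 genes were called lower in place of 6, and 855 of all genes were called in place of 1906. Of all genes, 3281 passed, and 1732 to 3726 did with 1 library left out.

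The replicate block by label number, which does not pair the samples, passed 1695 of all genes and 6 of the set. Of the pairings by animal, the block passed 3303 and 18, and the random effect with limma voom 5126 and 24. With the animal block, Orc2 and Orc6 turned to -0.0063 and -0.035, and the log2 ratio of Orc1 to Orc2 differed by -0.036 over the 2 animals. The animal block changed the calls of Cdc45, Mcm2, Mcm6, Rpa3, Chaf1b, Pcna and Pold1 in the set, of Timeless, Recql4, Atad5, Pole2 and Pold3 among the further replication genes, and of Pdgfra, Lum, Lyz2, Myh11 and Notch3 among the markers, and no call among the E2F, Rb and cyclin or the mitosis genes.

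With 1 library left out, log2 fold changes that changed sign ranged from -0.026 to 0.20 for Orc2, -0.057 to 0.29 for Orc6, -0.32 to 0.037 for Mcm4, -0.59 to 0.011 for Gins2, -0.15 to 0.028 for Rfc5 and -0.16 to 0.023 for Ctnnb1. The log2 differences of the ratios Orc1 to Orc2 and Mcm8 to Mcm5 ranged from -0.14 to 0.38 and from -0.11 to 0.20, and those of Cdt1 to Gmnn and Rfc1 to Rfc4 from 0.24 to 0.77 and from 0.21 to 0.60. The count of genes lower in both animals was 40 in counts scaled for depth and 39 in FPKM, an alternative chosen after seeing the data. The cause was not tested. Depth was not varied, and the lowest control mean in the set was 1.02 FPKM (Cdt1).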
